A study of Gallus gallus with 10 samples.

Results

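The creatine kinase and adenylate kinase genes CKM, CKB, CKMT2, AK1, AK4 and AK5 were examined in whole hearts of chicken embryos. Members were all probe sets whose symbol in the platform annotation is one of these 6 genes. That gave 7 of the 38535 probe sets on the array, and they cover 5 of the 6 genes, out of 13009 genes named on the array. CKB, CKMT2 and AK4 have 1 probe set each, AK1 and AK5 have 2 each, and CKM is not analysed here. The hearts were profiled on 10 single-colour arrays. Total RNA pooled from male embryos was measured on 5 of them, and total RNA pooled from female embryos on the other 5. No genotype, strain or agent is given in the labels beyond harvest of the tissue, and neither embryonic age nor the number of embryos per pool is stated there. The 5 pools of a sex are lettered A to E, and p-values rest on the spread among pools, part of which may be technical.

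Creatine kinases pass a phosphate group between ATP and creatine, and adenylate kinases interconvert ATP, ADP and AMP. In heart muscle both families link the mitochondria, where ATP is made, to the myofibrils and ion pumps that use it. CKB encodes the cytosolic brain-type creatine kinase, which in birds is also the main cytosolic form of the heart, and CKM encodes the muscle type. CKMT2 encodes the sarcomeric mitochondrial creatine kinase of the intermembrane space. AK1 is the cytosolic adenylate kinase of muscle, brain and red cells, AK4 a member of the family in the mitochondrial matrix, and AK5 a cytosolic form known from brain.

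CKB gave a far brighter signal than the other members on each of the 10 arrays. Its intensity ranged from 125173 to 155781, with a mean of 138826, and 99.7% of non-control probe sets lay at or below it by mean log2 level. The brighter AK1 probe set was next in every pool, between 14870 and 18769 with a mean of 16411. CKMT2 averaged 1898 and AK4 1636, and these neighbours in the order did not differ beyond their spread. CKMT2 was the brighter of the pair on 8 of 10 arrays, in 5 of 5 male pools and in 3 of 5 female pools. A probe set's intensity depends on its probes as well as on the transcript, and no value per length exists for these arrays, so this is an order of signals and not of transcript amounts.

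The other 3 probe sets were dim. The AK5 probe sets averaged 388 and 333, and the second AK1 probe set averaged 105, between 23.7 and 257. The pair of AK1 probe sets therefore gave signals far apart, and whether both read the AK1 transcript was not checked. The values carry no detection call. As a measured reference, chosen after the values were seen, 9 of 12 tested genes annotated on the female-specific W chromosome were called higher in females. Their mean intensities in male pools, which carry no W, ran from 118 to 416. Both AK5 means lie inside that range, with single pools of both probe sets above it, and the dimmer AK1 mean lies below it. The range rests on genes kept for their call in these same data, and whether it is background alone was not tested. No level of AK5 above background can be stated from these arrays.

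**Figure D1:**
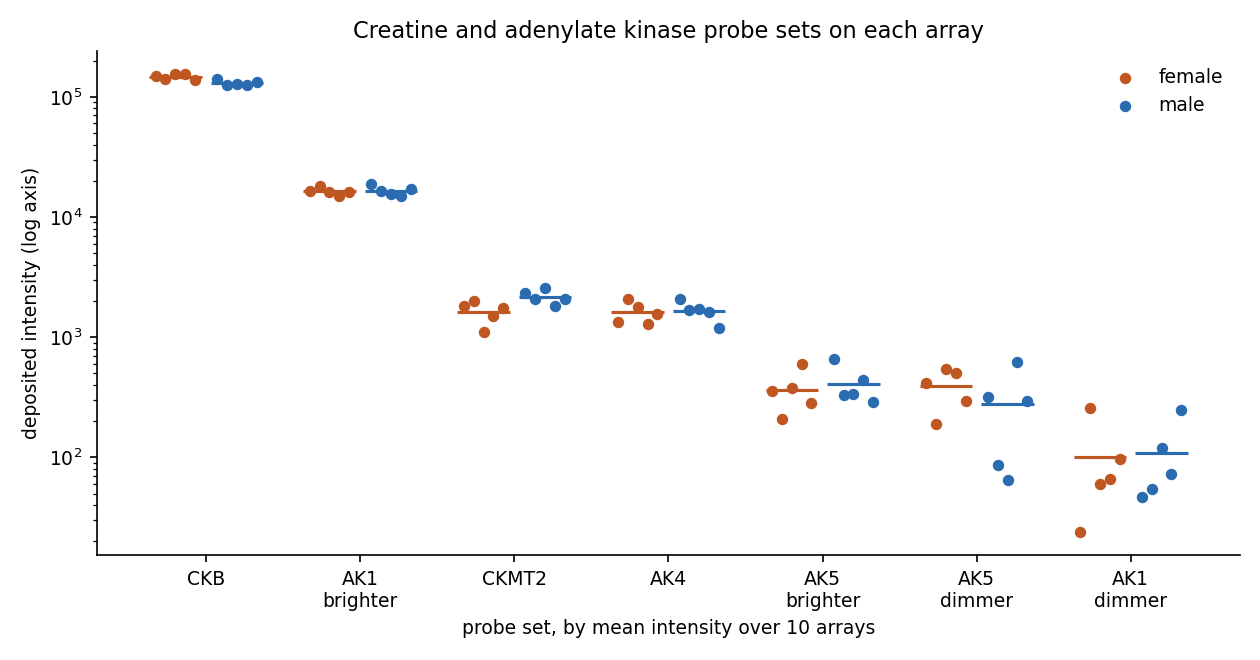
Deposited intensity (log axis) of the 7 member probe sets, with a point for each pool and a line at the mean of each sex (n = 5 per sex). CKB lies at 125173 or above and AK1 at 14870 or above in every pool, the ranges of CKMT2 and AK4 overlap, and the other 3 probe sets lie at 660 or below.

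None of the members differed between male and female hearts past the threshold. Of the 5 member probe sets bright enough to be tested, 0 were called by limma at an adjusted p under 0.05, where 1.76% of all 23063 tested probe sets were called. At an unadjusted p under 0.05, 2 of the 5 passed, CKB and CKMT2, against 9.1% of all tested probe sets and 63% of Z genes. The sexes overlapped for each of the 5, and 3.22% of all tested probe sets had no overlap. The median male minus female difference of the 5 was 0.05 on the log2(intensity + 16) scale, with 1 below 0, and that of all tested probe sets was -0.01, with 53.3% below 0. The dimmer AK1 and AK5 probe sets were under the filter on low values and were not tested. All differences between the sexes below are on that log2 scale, which understates the change of dim probe sets.

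CKB, on chromosome 5, was slightly lower in male than in female pools, and the difference did not pass the threshold. Female pools A to E had intensities of 149886, 139590, 154017, 155781 and 137017. Male pools A to E had 140949, 125898, 127950, 125173 and 131994. Female A, C and D lay above every male pool, while male A lay above female B and E. The mean was 147258 ± 8498 in females against 130393 ± 6469 in males (SD over 5 pools). The log2 difference was -0.17 ± 0.05 (SE, limma adjusted p = 0.182), which is 1.13-fold higher in females with a 95% interval of 1.04 to 1.22 that is not adjusted for the number of probe sets tested. CKB also had the smallest spread of the 7 member probe sets in these pools, with an SD of 0.07 on the log2 scale in males and 0.08 in females. It was also the brightest of the 7, and its spread was not compared with that of genes of like brightness.

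In a whole organ, fewer cells of a type and less RNA per cell cannot be told apart, so marker genes of the cells that can carry CKB were read on the same arrays. Of 9 cardiomyocyte markers tested, all had differences below 0, with a median of -0.06. Among autosomal genes of all levels 58.5% lay below 0. That share is not matched to these mostly bright markers, and none was computed for genes of like brightness. PLN, which encodes the calcium pump inhibitor phospholamban, was the 1 called by limma, higher in females, where 0.164% of autosomal genes were called. PLN and NKX2-5, a cardiac transcription factor gene, were the 2 of 9 with an unadjusted p under 0.05, against 7.25% of autosomal genes. The summed intensity of the cardiomyocyte markers was 846743 to 1084400 in male and 894499 to 1073650 in female pools. TNNT2, the cardiac troponin T gene, averaged 202755 over the 10 arrays, and NKX2-5 was at 21449 in males and 23785 in females, so these defining heart genes, picked from the list after their values were seen, were present. Neural and glial markers, of which 7 were tested and 0 called by limma (0 also at an unadjusted p under 0.05), summed to 7542 to 9385 in male and 8189 to 9720 in female pools. Of these 7, 5 lay below 0, with a median of -0.09. Smooth muscle markers, of which 2 were tested and 0 called by limma (0 also at an unadjusted p under 0.05), summed to 15951 to 26143 in male and 12287 to 21561 in female pools. Of these 2, 0 lay below 0, with a median of 0.30. ACTA2, under the filter but counted in the sum, averaged 137 ± 102 in males and 305 ± 241 in females (SD over 5 pools). The part of cardiomyocytes, neural cells and smooth muscle in the CKB values was not tested.

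CKMT2 lies on the Z chromosome, of which male birds carry a pair and females a single copy. Its intensity was 2327, 2067, 2563, 1814 and 2077 in male pools A to E. In female pools A to E it was 1809, 1991, 1102, 1495 and 1735. Male A, B, C and E lay above every female pool, and male D lay between female A and female B. The mean was 2170 ± 285 in males against 1626 ± 343 in females (SD over 5 pools). The log2 difference of 0.43 ± 0.16 corresponds to 1.35-fold higher in males, with a 95% interval of 1.07 to 1.70, but missed the threshold (limma adjusted p = 0.335). Female C had the lowest value, and without it the difference was 0.30 (adjusted p = 0.527).

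**Figure D2:**
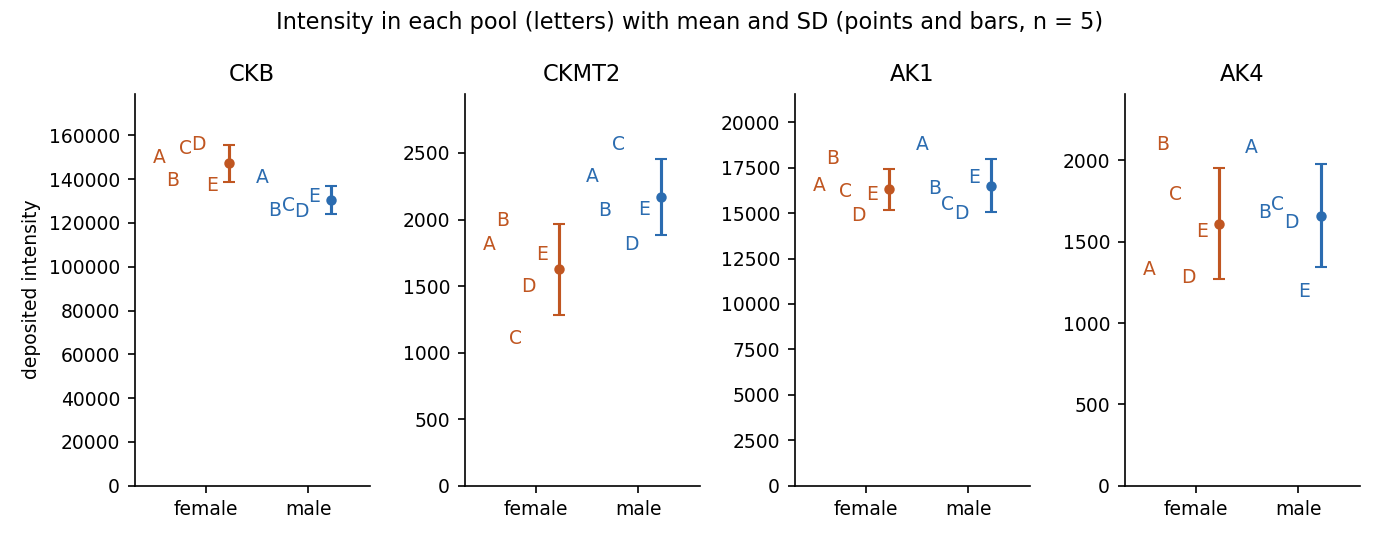
Deposited intensity of CKB, CKMT2, AK1 (brighter probe set) and AK4, each on its own axis from 0; letters are single pools and points with bars are the mean and SD of each sex (n = 5). Female CKB averages 147258 against 130393 in males, male CKMT2 averages 2170 against 1626 in females, and AK1 and AK4 have nearly equal means.

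The size of the CKMT2 difference lay in the middle of those of Z genes. Of the 492 Z genes tested, 233 had a larger male minus female difference and 258 a smaller one, and the median was 0.40. Among Z genes 40.9% were called higher in males. The SE of CKMT2 was 0.16, against a median SE of 0.12 over Z genes, and 181 Z genes had a larger one. The 5 measured genes on each side of CKMT2 in the annotated order of the GRCg7b assembly all had differences above 0. Of all Z genes tested, 11% lay below 0. The differences of these 10 neighbours ran from 0.12 to 0.76 with a median of 0.48, and 6 of them were called higher in males. The nearest on the one side was ZCCHC9, which encodes a zinc finger protein, at 0.26 ± 0.19. The nearest on the other was MSH3, a DNA mismatch repair gene, at 0.75 ± 0.16 (limma adjusted p = 0.0207). RPS23, a ribosomal protein gene, had the lowest difference of the 10 at 0.12 ± 0.07, and ATG10, of autophagosome formation, the highest at 0.76 ± 0.07 (adjusted p = 8.5e-06). These 4 genes were chosen for their place or rank after the values were seen. AK6, another adenylate kinase gene, is the fourth measured gene after CKMT2.

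**Figure D3:**
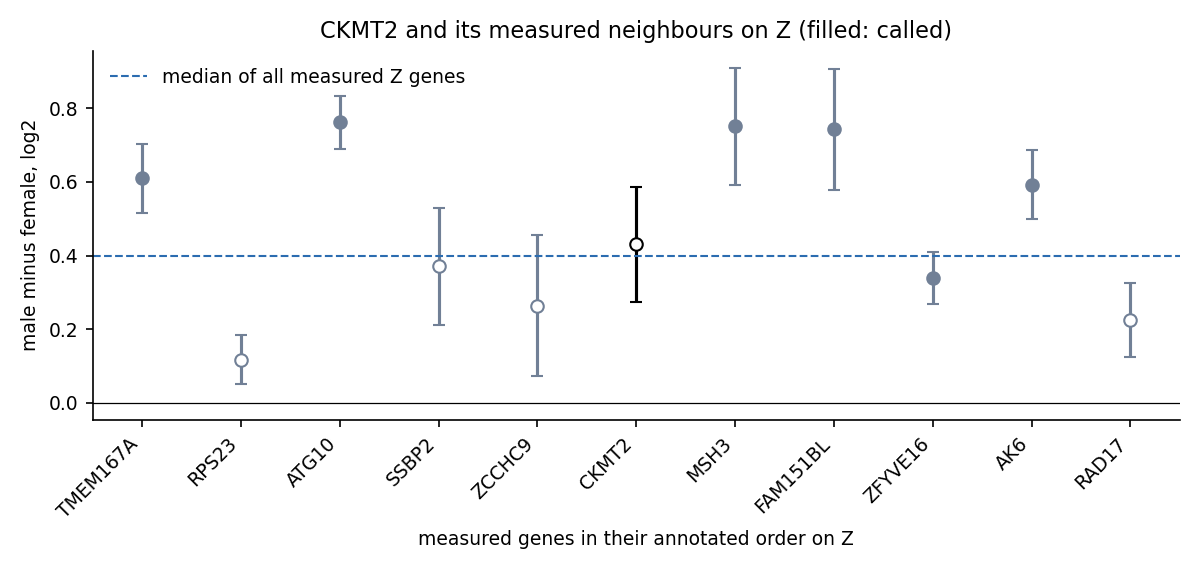
Male minus female log2 difference with its SE (bars) for CKMT2 and the 5 measured genes on each side of it on Z; filled points passed the threshold and the dashed line is the median of 492 Z genes, 0.40. All 11 lie above 0, where 11% of the 492 Z genes lay below 0, and CKMT2, at 0.43, lies next to the median line.

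On the same array, the CKMT2 signal relative to that of CKB was higher in male pools. The CKMT2 minus CKB value was -5.91, -5.92, -5.63, -6.10 and -5.98 in male pools A to E. It was -6.36, -6.12, -7.11, -6.69 and -6.29 in female pools A to E. The sexes did not overlap, with male D and female B as the nearest values. The means were -5.91 ± 0.17 in males against -6.51 ± 0.39 in females (SD over 5 pools), 0.61 apart. That pairs the 2 members with the lowest unadjusted p, in opposite directions, so no test is given. CKMT2 is Z-linked, its own difference of 0.43 was near the Z median of 0.40, and CKB is autosomal. The share of other Z and autosomal gene pairs without overlap was not counted. The gap can therefore not be called particular to these kinases. Only the change between arrays can be read, since the level of a difference between probe sets depends on their probes.

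**Figure D4:**
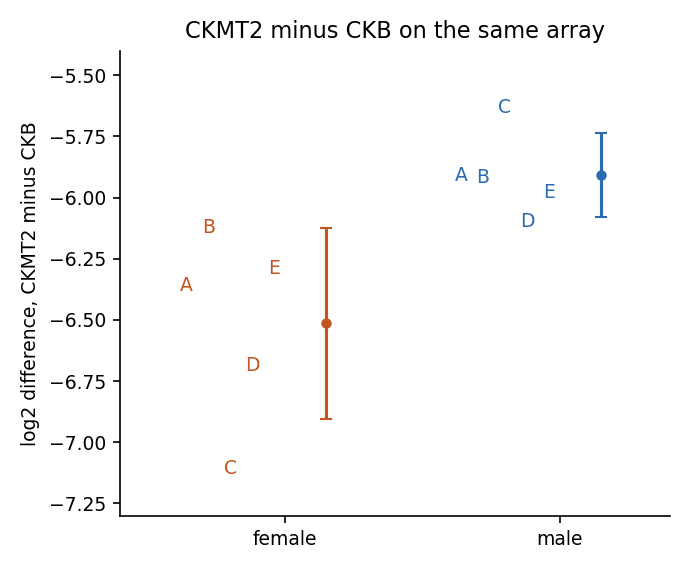
CKMT2 minus CKB on the log2(intensity + 16) scale on each array (letters), with mean and SD (points and bars, n = 5 per sex). All 5 male values lie above all 5 female values, and male D at -6.10 is next to female B at -6.12. The share of other gene pairs without overlap was not counted.

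AK1, on chromosome 17, had nearly the same level in both sexes. Male pools A to E had 18769, 16369, 15484, 14990 and 16950, and female pools A to E had 16494, 17994, 16176, 14870 and 16015. The highest value was that of male A and the lowest that of female D, and the other values were interleaved. The log2 difference was 0.02 ± 0.07, with a 95% interval of -0.13 to 0.16 (limma adjusted p = 0.974). A difference of more than 1.12-fold in favour of males or 1.10-fold in favour of females lies outside that interval. Erythroid markers, which bear on AK1 as a gene of red cells, had 4 genes tested and 0 called by limma. All 4 differences lay below 0, with a median of -0.10, where 58.5% of autosomal genes of all levels lay below 0. That share is not matched for brightness, and HBA1 and HBAD were among the brightest genes on the array. HBZ, a globin gene, was at -0.52 and was the 1 with an unadjusted p under 0.05, against 7.25% of autosomal genes. The summed intensity of the erythroid markers was 369655 to 538642 in male and 414531 to 536109 in female pools. Their part in the AK1 values was not tested.

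Skeletal muscle also carries AK1 and CKMT2. Of the 10 skeletal muscle markers, 5 were tested and 0 called by limma (0 also at an unadjusted p under 0.05), and the other 5 were under the filter. The 5 tested differed by 0.50 (TNNT3), 0.67 (MYBPC2), -0.07 (MYOG), -0.01 (PVALB) and -0.05 (CHRNA1). TNNT3 was the brightest, at 2165 in males and 1339 in females. The myogenic regulator MYOG averaged 607 in males and 718 in females. Of those under the filter, the myogenic regulators MYOD1, MYF5 and MYF6 had mean intensities between 89.3 and 482 in both sexes. TNNI2 averaged 372 ± 360 in males and 128 ± 86 in females (SD over 5 pools). CHRNG averaged 27.5 in males and 21.3 in females. The list summed to 4583 to 9187 in male and 4778 to 5858 in female pools. The part of skeletal muscle in the CKMT2 difference was not tested.

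AK4, on chromosome 8, varied between pools without regard to sex. Male pools A to E had 2083, 1678, 1729, 1619 and 1195, and female pools A to E had 1327, 2097, 1791, 1278 and 1560. Male A and female B were high, and male E and female D were low. The log2 difference was 0.05 ± 0.17, with a 95% interval of -0.31 to 0.41 (limma adjusted p = 0.967). The interval allows differences of up to 1.33-fold in favour of males and 1.24-fold in favour of females. Relative to AK4 on the same array, AK1 was at 3.32 ± 0.28 in males against 3.35 ± 0.23 in females (log2 difference between the probe sets, SD over 5 pools), and the sexes overlapped.

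AK5, also on chromosome 8, was read at dim levels by both probe sets. The brighter one had 660, 328, 340, 442 and 287 in male pools A to E and 353, 209, 378, 603 and 284 in female pools A to E. Male A and female D were high. The log2 difference was 0.18 ± 0.35, with a 95% interval of -0.57 to 0.93 (limma adjusted p = 0.926), and without female B it was 0.01. The mean of this probe set lay inside the range of the W genes in males, while male A, male D and female D lay above that range. Whether that range is background was not tested, so whether the interval bears on AK5 itself cannot be told. The dimmer probe set had 316, 86.9, 64.2, 623 and 293 in male pools A to E and 417, 189, 540, 506 and 292 in female pools A to E. It differed by nearly 10-fold among male pools alone, between 64.2 in C and 623 in D. Relative to AK1 on the same array, the brighter AK5 probe set was at -5.33 ± 0.41 in males against -5.50 ± 0.63 in females (SD over 5 pools), 0.17 apart with overlap.

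Among the other adenylate and nucleotide kinases, 2 Z-linked genes were called, in opposite directions. Of 17 listed genes 14 had a probe set, 5 of these were under the filter and 9 were tested, of which AK6 passed with males higher and AK3 with females higher. Over all 10284 genes, 1.99% passed with males higher and 0.233% with females higher. Among Z genes 40.9% passed with males higher and 0.407% with females higher. The median of the 9 was -0.09, against -0.02 over all genes.

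AK6, which encodes a nuclear adenylate kinase, had 3510, 3521, 3816, 4346 and 3970 in male pools A to E. In female pools A to E it had 2915, 2535, 2531, 2339 and 2358, all below the lowest male pool. The log2 difference was 0.59 ± 0.09, or 1.51-fold higher in males (95% interval 1.31 to 1.73, limma adjusted p = 0.00174). Its other probe sets had differences of 0.80 ± 0.13 (adjusted p = 0.00237) and 0.26 ± 0.19 (adjusted p = 0.746), so the last was not called.

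AK3, the GTP:AMP phosphotransferase of the mitochondrial matrix and a relative of AK4, moved the other way. Male pools A to E had 5300, 5110, 5325, 5047 and 5140, within a narrow range. Female pools A to E had 6633, 8198, 7693, 7524 and 8396, all above the highest male pool. AK3 was 1.48-fold higher in females (95% interval 1.33 to 1.64), with a log2 difference of -0.56 ± 0.07 (limma adjusted p = 0.000231). Of the 492 Z genes, 0.407% were called higher in females. The autosomal kinases did not pass. NME2, a nucleoside diphosphate kinase gene, was bright at 143156 in males and 152545 in females and differed by -0.09 ± 0.06 (adjusted p = 0.747). CMPK1, which phosphorylates CMP and UMP, differed by 0.01 ± 0.06 (adjusted p = 0.982). NME2 and CMPK1 were chosen after their values were seen.

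Genes of creatine supply, listed together with the creatine kinase gene CKMT1B, were not called. All 4 tested had differences below 0, with a median of -0.13, where 58.5% of autosomal genes of all levels lay below 0. GAMT, which completes creatine synthesis, was at 2296, 2048, 1698, 3057 and 2344 in male pools A to E and at 2851, 2345, 2652, 2796 and 3051 in female pools A to E. Male D was the highest of the 10, and the other male pools lay below every female pool, with male E and female B nearly equal. The log2 difference of GAMT was -0.28 ± 0.14 (limma adjusted p = 0.576), and it was -0.18 without male C and -0.39 without male D. The ubiquitous mitochondrial creatine kinase gene CKMT1B averaged 517 in males and 565 in females and differed by -0.16 ± 0.27 (adjusted p = 0.911). Without male D, its highest pool, that difference was -0.35, and without male B it was -0.09. GATM, of the first step of creatine synthesis, was at -0.11 ± 0.23, and the creatine transporter gene SLC6A8 at -0.05 ± 0.10. None of the 4 reached an unadjusted p under 0.05.

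Mitochondrial exchange genes carry adenine nucleotides and phosphate across the mitochondrial membranes. Read through their brightest probe sets, they were bright and differed little between the sexes. All 7 were tested and 0 called by limma (0 also at an unadjusted p under 0.05), and all 7 differences lay between -0.08 and -0.02. Where a gene had several tested probe sets, the dimmer ones reached -0.29 (SLC25A3), -0.27 (VDAC2), 0.12 (SLC25A4) and 0.11 (SLC25A6), with 0 called. The ATP/ADP carrier gene SLC25A4 averaged 141988 in males and 149923 in females, a difference of -0.08 ± 0.06 (adjusted p = 0.755). The voltage-dependent anion channel gene VDAC3 was at -0.07 ± 0.05 (adjusted p = 0.736).

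In AMP metabolism and sensing, 11 genes were tested and 0 called by limma, and 2 had an unadjusted p under 0.05. These were PRKAA1 on Z and PRKAB1 outside it, where 63% of Z genes and 7.25% of autosomal genes passed at that level. The median was -0.04. PRKAA1, a catalytic subunit gene of AMP-activated protein kinase and Z-linked, had 1347, 2053, 2439, 2006 and 2112 in male pools A to E and 1372, 1429, 1391, 1375 and 1109 in female pools A to E. Male A lay among the female pools and the other male pools above them. The log2 difference was 0.55 ± 0.15 (limma adjusted p = 0.117), where the median of Z genes was 0.40. Without male A it was 0.68 and passed (adjusted p = 0.00962). In the other 9 fits with 1 array left out PRKAA1 was not called. It was at 0.47 without male C (adjusted p = 0.314) and at 0.49 without female E (adjusted p = 0.272). PRKAB1, a regulatory subunit gene of the same kinase on chromosome 15, was at -0.27 ± 0.10 (adjusted p = 0.362).

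Of the ATP pump and myomesin genes, 5 were tested and 0 called by limma (0 also at an unadjusted p under 0.05), with a median of -0.05. ATP2A3, a calcium pump gene, was at -0.23 ± 0.13 and MYOM2, which encodes an M-band protein, at 0.08 ± 0.06 (limma adjusted p = 0.674 and 0.743). ATP2A3 was at -0.14 without female E, and also with its probe sets averaged. Over all 5 partner lists, 2 of 36 tested genes were called, or 2 of 3 on Z and 0 of 33 elsewhere. Of all genes 2.23% were called, and of autosomal genes 0.164%. Z genes were called higher in males in 40.9% and higher in females in 0.407%. Of the 33 outside Z, 25 lay below 0, where 58.5% of autosomal genes of all levels did. That share is not matched for brightness. An unadjusted p under 0.05 was reached by 1 of the 33, against 7.25% of autosomal genes.

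**Figure D5:**
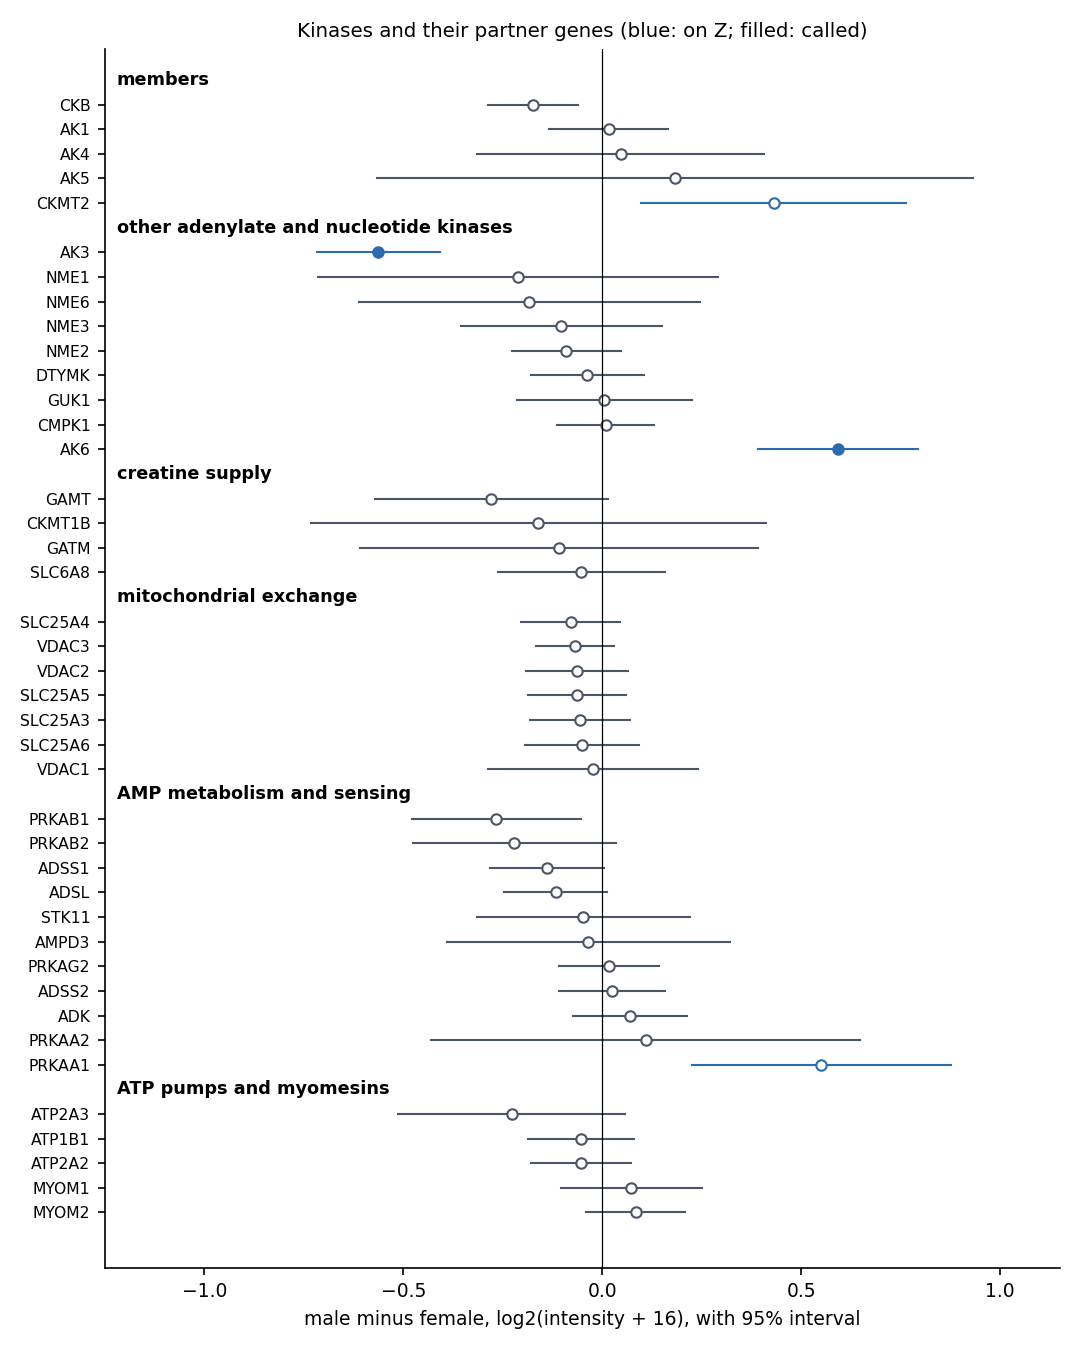
Male minus female difference on the log2(intensity + 16) scale with its 95% interval for the 5 tested member probe sets and 36 partner genes by list; blue marks genes on Z and filled points passed the threshold. AK3 at -0.56 and AK6 at 0.59 are filled, and the 33 partner genes outside Z lie between -0.28 and 0.11.

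Genes whose pattern over the 10 arrays was most like that of a member were named as a description, with each sex's mean subtracted and 10283 other genes ranked. All arrays share the same scaling, and the highest of so many correlations over 10 arrays are high in any case. For CKB these were SPINK2, DOK5 and BAHD1, with Pearson's r of 0.93, 0.92 and 0.90 and Spearman's rho of 0.90, 0.88 and 0.92. For CKMT2 they were ATP6V1H, DPAGT1 and PARVA, with r of 0.96, 0.95 and 0.94 and rho of 0.95, 0.94 and 0.85. For AK1 they were STARD3NL, SEPTIN2L and C6orf203, with r of 0.94, 0.93 and 0.92 and rho of 0.90, 0.78 and 0.85. Without the 2 arrays farthest from the member's median, r for these 9 genes ran from 0.75 to 0.94. None of the 9 differed between the sexes past the threshold.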

How the data were processed

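The authors deposited 1 linear intensity per probe set and array. Their software, background correction and summarisation steps were not given in the sources used here. In that table, the mean after trimming 2% at each end was 2499.8 on every array, so arrays had been brought to a common level, and array medians ran from 605 to 735. Correlations between arrays lay between 0.946 and 0.971. Probe sets were named through the platform annotation (27178 with 1 symbol, 177 with several and 11180 unnamed here), updated by gene ID to the RefSeq table of GRCg7b, which also gave chromosomes and gene order. No sequence is printed, since none was given for these probe sets.

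Values were analysed as log2(intensity + 16). Control probe sets (96) were removed, as was the lowest 40% of the rest by mean, leaving 23063. Males were compared with females by limma 3.58.1 (R 4.3.3; lmFit, eBayes with a variance trend), with Benjamini-Hochberg adjustment over all tested probe sets and a threshold of 0.05. This procedure was tested on simulated data, drawn independently for each probe set and array. Those data hold no effect shared within an array, so they cannot show how calls behave under such an effect. A partner gene was read through its brightest probe set. The number of arrays limits the precision.

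Members and lists were chosen with earlier results of these data known. All member probe sets were to be named, and from each partner list the called genes and the 2 with the largest absolute difference, and the 3 genes with the highest correlation to CKB, CKMT2 and AK1; other names are said to be chosen afterwards, or complete a short list or count. Alternatives covered offsets, filters, normalization, the letter as a block, variance priors, array weights, averaged probe sets and each array left out.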

Additional observations from a re-analysis of the deposited data

Results flagged for a closer look

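Of 40 sets of 5 same-sex values checked (members, balances and named partner genes), 3 held a pool far from the others. Its gap to the nearest value was over 0.71 of the whole range, with all gaps taken on the log2 scale. Chance gives about 1 in 20. Relative to AK4, AK1 in male E was at 3.81 on the log2 scale, where the other male pools lay between 3.15 and 3.27 (gap 0.814 of the range). CKMT1B in male D was at 858, where the other male pools lay between 401 and 449 (gap 0.853). PRKAA1 in female E was at 1109, where the other female pools lay between 1372 and 1429 (gap 0.839).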

How the results depend on the processing

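No member probe set tested in the main analysis was called under any alternative fit, and the 2 partner calls, AK3 and AK6, kept their direction and stayed past the threshold in each. CKB kept its direction in all of them, from -0.20 to -0.13, with adjusted p from 0.0703 (without male A) to 0.486. CKMT2 did so from 0.30 to 0.51, with adjusted p from 0.232 to 0.592. With the letter as a replicate block, CKB was at -0.17 (adjusted p = 0.245) and CKMT2 at 0.43 (adjusted p = 0.370). In that fit no call of a member or partner gene changed. Calls of other named genes, such as PLN, MSH3 and ATG10, were not read under the alternatives. Deviations of same-letter pools correlated between 0.00 and 0.21, and 3 of 5 letters matched best with themselves in the other sex. Since not every correlation was over 0.1, the letters were not taken as pairs. Small differences changed sign: AK1 was at -0.000225 with array weights and between -0.031 and 0.052 with 1 array left out, AK4 between -0.040 and 0.16 with 1 array left out, AK5 at -0.30 and AK5 minus AK1 at -0.39 with both probe sets of a gene averaged, and SLC25A4 at 0.036 with its 3 averaged; the cause was not tested. With 1 array left out, AK1 minus AK4 (-0.030) ranged from -0.15 (without male E) to 0.038, and AK5 minus AK1 (0.17) from -0.040 (without female B) to 0.39. Over the same fits CKMT1B ranged from -0.35 to -0.088, GAMT from -0.39 to -0.18, ATP2A3 from -0.33 to -0.14, SLC25A4 from -0.12 to -0.046 and MYOM2 from 0.055 to 0.12, none of them called. With no filter, the dimmer AK1 probe set was at 0.18 ± 0.58 and the dimmer AK5 probe set at -0.78 ± 0.56 (limma adjusted p = 0.975 and 0.827). Dim probe sets limit what can be read of AK5. The CKM comparisons that had been planned were not run. The brighter AK5 probe set fell under the filter without male A, male D or female D, so it has no value there.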
